A study of Mus musculus with 18 samples.

Results

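The mRNAs of 7 secreted signalling proteins were followed through HS and tunicamycin treatment, namely Fgf21, Gdf15, Stc2, Vegfa, Lif, Hbegf and Stc1, out of 20207 genes in each file. They were chosen by name as hormones and growth factors linked to cell stress, with their read counts and fold changes in these same samples already known. Their levels and changes are therefore given as a description, with no test. All 7 were found in every file and all 7 had at least 1 read in every sample. The name "stress-induced" did not hold for the whole set. The mean levels of Stc1 and Hbegf were below the control at both times of HS, and Hbegf, Stc1 and Lif peaked at 135 min of tunicamycin, when Fgf21, Gdf15, Stc2 and Vegfa were lower than at 45 min.

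mRNA-seq was made from NIH3T3 cells, an established mouse fibroblast line, that carry a stably integrated DD-GFP fusion of a destabilizing domain (DD) to superfolder GFP and were sorted for high GFP. All 6 groups, the control included, were kept in S1, a ligand under which the DD stays folded, so each group is a stressed or unstressed DD-GFP line rather than unmodified NIH3T3. The control group was taken at 0 min and 37°C without a stress, and the stressed groups were taken after 45 or 135 min of HS at 42°C or after 45, 135 or 405 min of tunicamycin, which a legend of the study gives as 5 µM. There were 3 replicates in each group and 18 samples in all, and nothing in the labels says whether the replicates were separate cultures, so every p-value below measures only the spread between these samples. The 5 comparisons with control share the same 3 control samples, and their values are set side by side without any measure of overlap between them.

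Secreted hormones and growth factors carry a cell's state to its neighbours or to other organs. FGF21 and GDF15 are circulating hormones of nutrient and tissue stress, read in the body through KLB with an FGF receptor and through GFRAL with RET, and both genes are known targets of the integrated stress response factors ATF4 and CHOP. STC1 and STC2 are stanniocalcins, glycoprotein hormones first found in fish calcium balance, and STC2 also binds and blocks the metalloproteinase PAPP-A, which frees IGFs from their binding proteins. VEGFA drives the growth and leakiness of blood vessels, HB-EGF is shed from the cell surface by ADAM proteases and binds the EGF receptor, and LIF signals through LIFR and gp130 (Il6st). Tunicamycin blocks N-linked glycosylation in the endoplasmic reticulum and so starts the erUPR, whereas HS unfolds proteins throughout the cell and starts the HSR.

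The promoters of the genes that were high at both 135 min of HS and 405 min of tunicamycin are shown first, with that of Lif as a member of another pattern. RefSeq promoter windows (GRCm38.p6, 250 bases before to 50 bases after each annotated transcript start) were used for 5 of the 7 genes, 7 windows in total. No window was used for Stc1 or Hbegf, so their promoters were not searched. Below, "all windows" means the windows that were searched, which may not cover every annotated start. The 250 upstream bases are printed 5′ to 3′ on the gene's strand. Capitals mark matches to the motifs searched in the whole window on both strands. The windows lie at chr7:45615491-45615740 (minus strand) for Fgf21, chr8:70632096-70632345 (minus strand) for the second start of Gdf15, chr11:31370062-31370311 (minus strand) for Stc2, chr17:46032378-46032627 (minus strand) for the first start of Vegfa and chr11:4257318-4257567 (plus strand) for Lif.
Fgf21: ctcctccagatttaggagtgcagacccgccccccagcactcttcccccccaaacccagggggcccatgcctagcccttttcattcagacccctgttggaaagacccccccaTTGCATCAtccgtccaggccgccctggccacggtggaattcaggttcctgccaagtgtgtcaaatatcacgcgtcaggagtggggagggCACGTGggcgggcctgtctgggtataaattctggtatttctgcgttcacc
Gdf15, second start: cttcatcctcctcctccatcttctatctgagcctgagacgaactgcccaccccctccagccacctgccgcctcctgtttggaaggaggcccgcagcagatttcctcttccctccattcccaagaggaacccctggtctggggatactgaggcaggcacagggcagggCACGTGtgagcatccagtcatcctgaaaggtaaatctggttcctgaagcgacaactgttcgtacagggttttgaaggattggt
Stc2: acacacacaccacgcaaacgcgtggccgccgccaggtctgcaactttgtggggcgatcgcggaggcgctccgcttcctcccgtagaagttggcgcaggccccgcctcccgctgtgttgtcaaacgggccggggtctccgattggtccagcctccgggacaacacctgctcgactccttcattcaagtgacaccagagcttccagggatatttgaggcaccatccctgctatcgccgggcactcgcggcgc
Vegfa, first start: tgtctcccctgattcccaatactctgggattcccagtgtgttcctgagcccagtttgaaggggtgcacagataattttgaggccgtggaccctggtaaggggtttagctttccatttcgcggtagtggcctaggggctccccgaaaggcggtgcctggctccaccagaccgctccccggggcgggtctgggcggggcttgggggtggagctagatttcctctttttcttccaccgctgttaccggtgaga
Lif: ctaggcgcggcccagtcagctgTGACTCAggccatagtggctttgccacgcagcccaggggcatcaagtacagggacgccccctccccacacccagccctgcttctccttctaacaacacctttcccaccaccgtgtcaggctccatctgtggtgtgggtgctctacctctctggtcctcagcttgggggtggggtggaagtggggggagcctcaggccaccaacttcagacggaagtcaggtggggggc

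The Fgf21 window held TTGCATCA at -139 to -132 from the start, a match to the C/EBP-ATF response element core TTNCATCA, which ATF4 and its partners bind and which 3.97% of all 32851 windows held. CACGTG at -50 to -45 in Fgf21 and at -83 to -78 before the second start of Gdf15 holds the hypoxia response core ACGTG on both strands, and 19.6% of all windows held that core. Lif had TGACTCA, a match to the AP-1 site TGANTCA, at -228 to -222, and 7.81% of all windows held that motif. The second start of Vegfa had ACGTG on the opposite strand at -211 to -207. That window (chr17:46025164-46025413, minus strand) lies downstream of the first start, inside the gene, so this match is not upstream of Vegfa as a whole. The windows of Stc2, of the first start of Vegfa and of the first start of Gdf15 had no match. None of the 7 windows held TGACGTCA (the cyclic AMP response element, 1.79% of all windows), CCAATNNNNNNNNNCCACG (the ER stress response element, 0.119%) or GAANNTTCNNGAA (the heat shock element, 0.603%). A match is a stretch of letters in this window, and whether a factor sits there was not tested.

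Gene counts summed to between 33415592 and 66478268 reads in a sample, and the deposited counts carry 4 significant digits. Levels of a gene across samples are given in CPM, reads per 1000000 of a library scaled by TMM over the 18 samples. Before TMM scaling, 3 reads corresponded to 0.0451 to 0.0898 per 1000000 of the summed counts, a floor for counting error only. Fibroblast markers summed to 4340 to 12000 RPKM per sample, led by Col1a1, and were lowest at 405 min of tunicamycin (4340 to 4840 RPKM against 9160 to 9650 in the control); their part in the results at that time was not tested. Of 10 fibroblast markers, 1 stayed below 1 RPKM everywhere. Hepatocyte, endothelial, epithelial and adipocyte markers summed to at most 0.165 RPKM, and the immune list to 3.72 to 7.61 RPKM, with Cd68 as its single marker above 1 RPKM. In bulk samples, fewer cells of a type and less RNA per cell cannot be told apart. Replicate 3 of HS at 45 min stood apart from the other replicates, with correlations of log2 CPM of 0.953 and 0.936, and replicates 1 and 2 of HS at 135 min were the least alike of that group (0.935), against 0.967 to 0.996 for every other pair. Counts at these times are given with and without such samples where they differ.

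Fgf21 (mm9, chromosome 7, 52869260 to 52870860, minus strand, 3 exons) had, with Gdf15, the largest folds against the control among the 7 genes. The control samples held 22, 25 and 31 reads, or 0.552, 0.446 and 0.709 CPM. HS gave 3.30, 4.12 and 2.33 CPM at 45 min and 8.22, 19.2 and 15.2 CPM at 135 min. All 6 HS samples lay above the control, and the later time above the earlier. Tunicamycin gave 6.43, 6.38 and 7.22 CPM at 45 min, 1.62, 1.20 and 0.985 CPM at 135 min, and 22.15, 27.97 and 36.89 CPM at 405 min. The level thus went up, came down and went up again, and the 3 samples at 135 min lay below all 3 at 45 min and all 3 at 405 min. Mean levels stood at 24.9-fold the control at 135 min of HS, 11.7-fold at 45 min, 2.23-fold at 135 min and 50.95-fold at 405 min of tunicamycin. The fitted log2 changes were 2.51 (SE 0.366) and 4.64 (SE 0.423) under HS and 3.57 (SE 0.227), 1.17 (SE 0.315) and 5.70 (SE 0.283) under tunicamycin. In order, control, tunicamycin 135 min, HS 45 min, tunicamycin 45 min, HS 135 min and tunicamycin 405 min did not overlap between any neighbours.

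Gdf15 (chromosome 8, 73153293 to 73155534, minus strand, 2 exons), a distant TGF-beta relative, was almost silent in the control, where the 3 samples held 4, 1 and 4 reads. The HS samples held 26, 18 and 9 reads at 45 min (0.496, 0.392 and 0.131 CPM) and 82, 206 and 268 reads at 135 min (1.30, 4.57 and 4.71 CPM). Under tunicamycin there were 38, 42 and 39 reads at 45 min, 11, 7 and 11 at 135 min and 119, 136 and 152 at 405 min, the last being 1.88, 2.40 and 2.74 CPM. Every stressed sample lay above every control sample. The dip at 135 min of tunicamycin was present here as in Fgf21, with 0.233 ± 0.0896 CPM between 0.649 ± 0.153 and 2.34 ± 0.433 CPM (SD, n = 3). With 9 control reads in all, folds are loosely bounded: pooled reads gave a ratio of 52.2 (95% exact interval 27.3 to 115) at 135 min of HS, 35.9 (18.7 to 79.1) at 405 min and 3.43 (1.58 to 8.23) at 135 min of tunicamycin, intervals for counting error only. The fitted log2 change was 5.68 (SE 0.737) at 135 min of HS and 5.13 (SE 0.419) at 405 min of tunicamycin, and these groups overlapped. Their order relative to Fgf21 was the reverse: the mean of Gdf15 at 405 min of tunicamycin was 0.663 of that at 135 min of HS, and the mean of Fgf21 was 2.04 times.

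Stc2 (chromosome 11, 31259441 to 31270061, minus strand, 3 exons) followed the same path at a much smaller scale. The control samples held 17.93, 17.96 and 18.23 CPM. HS gave 38.4, 48.4 and 25.2 CPM at 45 min and 36.5, 69.0 and 51.0 CPM at 135 min. Tunicamycin gave 37.4, 51.3 and 61.1 CPM, then 33.3, 23.4 and 22.2 CPM, then 73.9, 84.7 and 74.1 CPM. All 15 stressed samples were above the control, and the 3 samples at 405 min were above all others. The 45 and 135 min samples of HS overlapped. The mean level was 2.89-fold the control at 135 min of HS and 4.30-fold at 405 min of tunicamycin, and the log2 changes were 1.05 (SE 0.278), 1.53 (SE 0.268), 1.48 (SE 0.182), 0.56 (SE 0.203) and 2.13 (SE 0.122) in the order HS 45 and 135 min, tunicamycin 45, 135 and 405 min.

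Vegfa (chromosome 17, 46153943 to 46169326, minus strand, 8 exons) was the member with the most reads. Its control samples held 61.5, 61.1 and 60.4 CPM, and its HS samples 101, 103 and 72.8 CPM at 45 min and 174, 256 and 195 CPM at 135 min. Tunicamycin gave 196, 197 and 251 CPM at 45 min, 194, 129 and 153 CPM at 135 min and 273, 263 and 251 CPM at 405 min. The dip at 135 min was shallow: the mean at 45 min was 1.35 times that at 135 min, against 5.26 times for Fgf21, 2.79 for Gdf15 and 1.90 for Stc2. All 15 stressed samples lay above the control, with log2 changes of 0.60 (SE 0.209) and 1.77 (SE 0.213) under HS and 1.83 (SE 0.134), 1.39 (SE 0.184) and 2.13 (SE 0.112) under tunicamycin. Ranked by mean, 135 min of tunicamycin, 135 min of HS, 45 min of tunicamycin and 405 min of tunicamycin each overlapped with the next.

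Lif (chromosome 11, 4167098 to 4172517, plus strand, 3 exons), an interleukin-6 family cytokine, had a different time course. It was at 3.99, 3.48 and 3.64 CPM in the control and at 2.84, 3.64 and 3.36 CPM after 45 min of HS, which overlapped. It was at 5.01, 6.94 and 6.12 CPM after 135 min of HS. Under tunicamycin it stood at 8.84, 8.31 and 8.77 CPM at 45 min, 10.07, 10.03 and 9.33 CPM at 135 min and 4.27, 4.23 and 3.995 CPM at 405 min. The early plateau was 2.33-fold and 2.65-fold the control, and the level then went back to 1.13-fold. Its log2 changes under tunicamycin were 1.24 (SE 0.157), 1.42 (SE 0.203) and 0.19 (SE 0.154).

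Hbegf (chromosome 18, 36664586 to 36675428, minus strand, 6 exons) stood above its control range in 1 group alone. The control samples held 16.6, 22.0 and 18.9 CPM, the HS samples 12.7, 14.4 and 16.1 CPM at 45 min and 15.5, 15.3 and 21.7 CPM at 135 min. After 45 min of tunicamycin the level was 21.7, 21.1 and 15.2 CPM, at 135 min it was 26.9, 41.9 and 38.6 CPM, and at 405 min it was 14.0, 13.1 and 13.4 CPM. The 3 samples at 135 min of tunicamycin lay above the 15 others, and the 3 samples at 405 min lay below the control. Log2 changes were 0.92 (SE 0.230) at 135 min and -0.49 (SE 0.144) at 405 min. HS gave -0.42 (SE 0.235) and -0.13 (SE 0.248).

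Stc1 (chromosome 14, 69647346 to 69659458, plus strand, 4 exons) was thinly covered, with 13 to 65 reads per sample. It held 22, 39 and 32 reads in the control, or 0.552, 0.696 and 0.732 CPM. HS gave 17, 13 and 38 reads at 45 min and 28, 13 and 21 reads at 135 min, or at most 0.552 and 0.443 CPM. No HS sample was above any control sample in CPM, but at 45 min this was a near tie. HS replicate 3 stood at 0.5521 CPM and control replicate 1 at 0.5523 CPM, and in RPKM their order was reversed (0.129 and 0.121). The tunicamycin samples held 43, 44 and 28 reads at 45 min, 41, 65 and 30 at 135 min (0.992, 1.22 and 0.821 CPM) and 38, 25 and 26 at 405 min. The 135 min samples lay above all others. Log2 changes were -0.76 (SE 0.371) and -0.84 (SE 0.315) under HS and 0.63 (SE 0.287) at 135 min of tunicamycin. The means of Stc1 and its paralog Stc2 thus stood on opposite sides of their controls at both times of HS.

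**Figure D1:**
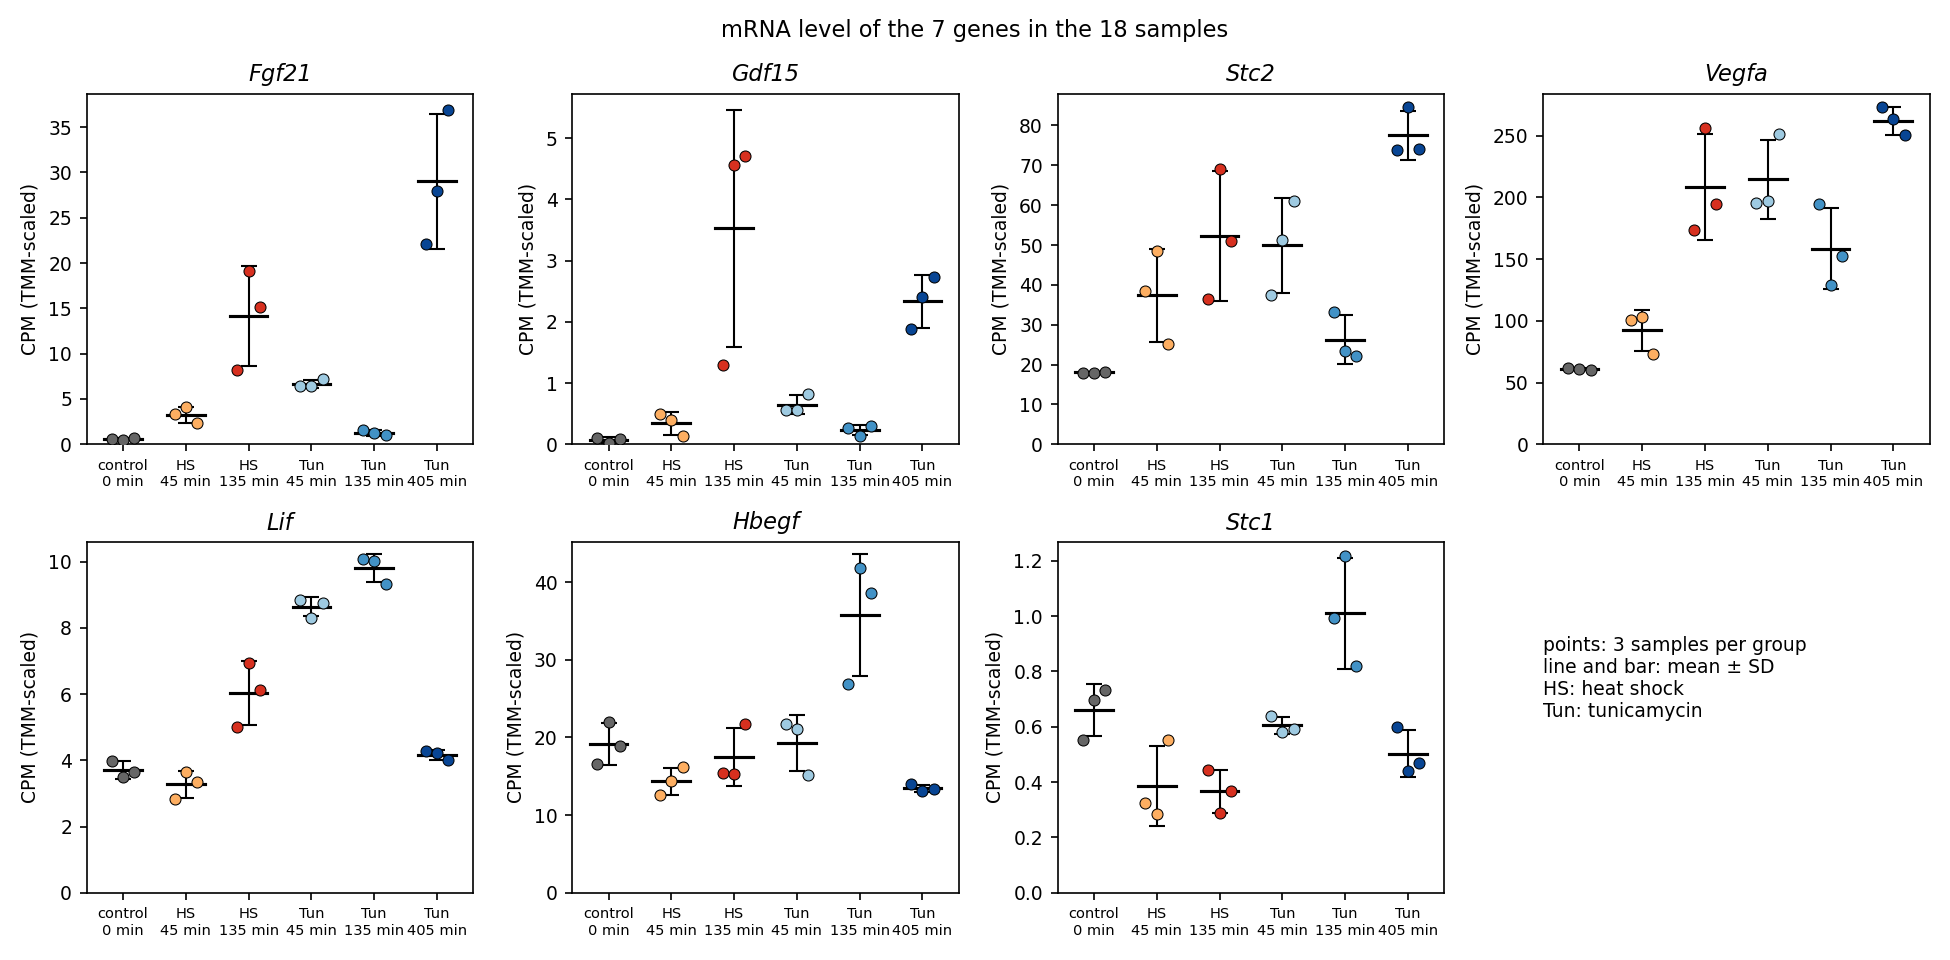
Level of each of the 7 genes (CPM, linear axis from 0) in the control, 2 HS and 3 tunicamycin groups, with points for the 3 samples of a group and the mean ± SD as line and bar. Fgf21, Gdf15, Stc2 and Vegfa dip at 135 min of tunicamycin and are high again at 405 min, where Fgf21 reaches 29.0 CPM, and Hbegf and Stc1 are highest at 135 min of tunicamycin, at 35.8 and 1.01 CPM.

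**Figure D2:**
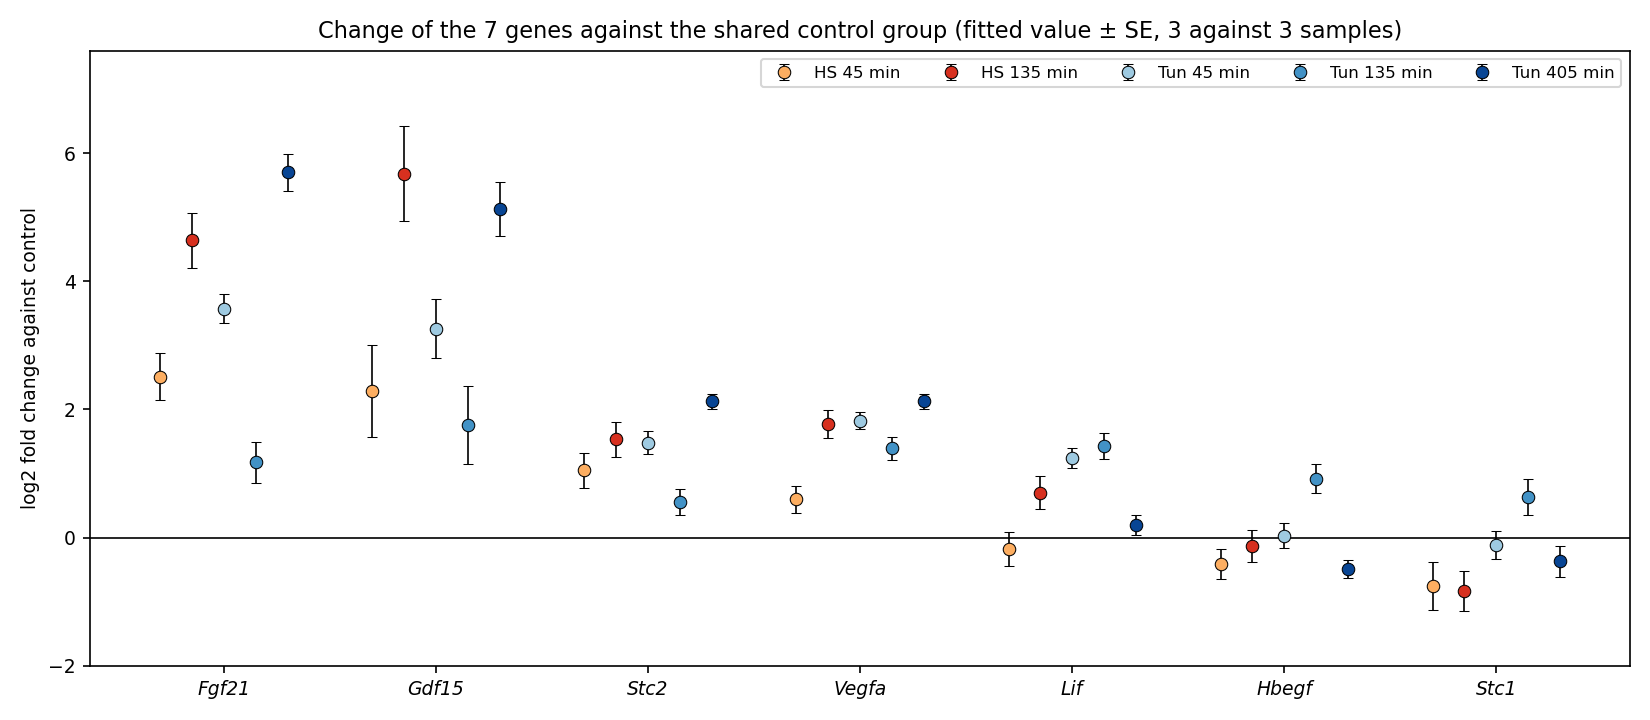
Fitted log2 change of each gene against the shared control (points, with the standard error as bars) for HS at 45 and 135 min and tunicamycin at 45, 135 and 405 min. Values run from -0.84 for Stc1 at 135 min of HS to 5.70 for Fgf21 at 405 min of tunicamycin.

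Read per transcript length, the 7 genes stood in a different order before and after stress. In RPKM, which allows genes to be set side by side, the control had Vegfa at 15.7 ± 0.437, Stc2 at 8.60 ± 0.373, Hbegf at 7.02 ± 1.17, Lif at 0.832 ± 0.0353, Fgf21 at 0.514 ± 0.129, Stc1 at 0.151 ± 0.0268 and Gdf15 at 0.0548 ± 0.0351 (SD, n = 3). After 405 min of tunicamycin Fgf21 stood at 24.9 ± 5.90 RPKM, behind Vegfa at 64.4 ± 4.43 and Stc2 at 35.3 ± 2.33, and above Hbegf at 4.70 ± 0.292. Gdf15 was then at 1.75 ± 0.285 RPKM, above Lif at 0.895 ± 0.0513. Vegfa had the highest RPKM of the 7 in every group. A large fold therefore did not mean a large level: Gdf15 had its highest group mean at 2.35 RPKM, below the control level of Vegfa, Stc2 or Hbegf.

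**Figure D3:**
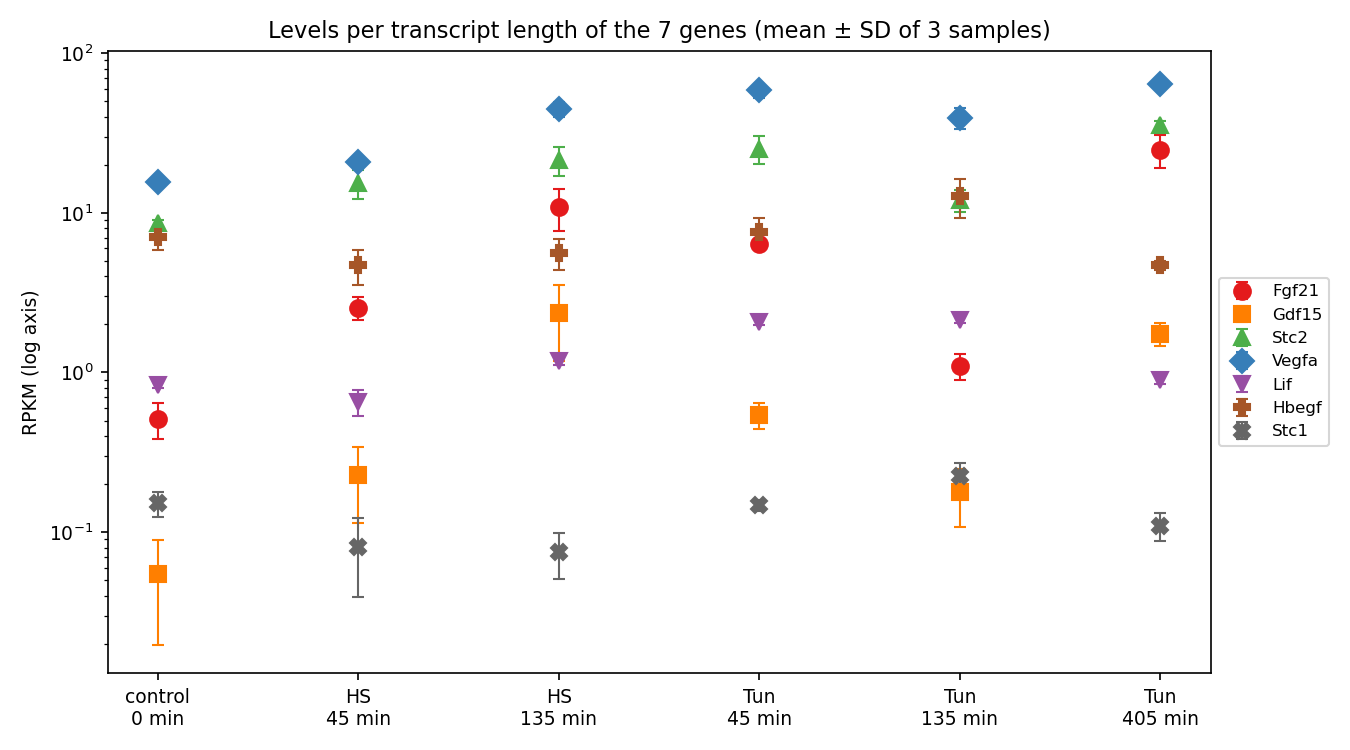
Levels of the 7 genes side by side in RPKM (log axis), mean ± SD of 3 samples in each of the 6 groups. Fgf21 moves from 0.514 RPKM in the control to 24.9 RPKM at 405 min of tunicamycin, while Vegfa stays the highest throughout.

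Over all genes tested (12731 with at least 1 read in every sample; edgeR's quasi-likelihood test, called at adjusted p under 0.05), the members' counts were as follows, as a description, since these contrasts chose them. HS for 45 min had 0 of 7 past the threshold, as 0.0% of all genes were higher and 0.0% lower. At an unadjusted p under 0.05, 4 members were higher there, beside 12.3% of all genes, and DESeq2 called 2 (3.55% of all genes) and edgeR's exact test 1 (2.32%). Without replicate 3 of that group, 5 members passed (Fgf21, Gdf15, Stc2 and Vegfa higher, Stc1 lower), beside 45.4% of all genes. At 135 min of HS, Fgf21, Gdf15, Stc2 and Vegfa were past the threshold and higher, beside 4.75% of all genes higher and 2.64% lower, and without replicate 3, or without control replicate 2 or 3, Fgf21 alone remained, beside 0.0864% to 0.118% of all genes. At 45 min of tunicamycin these 4 and Lif passed (4.01% of all genes higher, 2.17% lower), and without tunicamycin replicate 2 Fgf21 and Vegfa alone (0.456% of all genes), without control replicate 3 Fgf21, Stc2 and Vegfa (0.754%). At 135 min of tunicamycin Vegfa alone passed (0.126% higher, 0.00785% lower). DESeq2 and the exact test each called 4 members higher there (Fgf21, Vegfa, Hbegf and Lif), beside 5.22% and 4.35% of all genes. The fit of all 6 groups called Vegfa, Hbegf and Lif (3.23%). With the replicate number as a block no member passed, nor did any other gene. Vegfa passed in 1 of the 6 fits that left out a sample, the one without tunicamycin replicate 1, in which Lif passed too (0.479% of all genes); 0.0% to 0.0236% of all genes passed in the other 5. At 405 min of tunicamycin Fgf21, Gdf15, Stc2 and Vegfa were higher and Hbegf lower (23.3% higher, 23.5% lower). The 4 that were higher passed whichever of the 6 samples was left out, beside 31.9% to 62.0% of all genes. Hbegf passed in 2 of these 6 fits, without tunicamycin replicate 1 (41.3% of all genes) and without control replicate 1 (62.0%). The median log2 change of the 7 was 0.60, 1.53, 1.48, 1.17 and 2.13 in these 5 comparisons, against medians between -0.032 and -0.003 over all genes.

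At matched times the stresses ranked the members differently. The share of all genes whose HS and tunicamycin samples were fully apart was not counted at either time. Such separation is therefore given gene by gene and not as a trait of the members. After 45 min, Fgf21, Gdf15, Stc1, Vegfa and Lif were lower in all 3 HS samples than in all 3 tunicamycin samples. The log2 differences of HS minus tunicamycin were -1.04 (SE 0.268) for Fgf21, -1.22 (SE 0.196) for Vegfa and -1.40 (SE 0.207) for Lif. Stc2 and Hbegf overlapped. No member passed the threshold in the direct fit, where 0.0628% of all genes were called higher and 0.141% lower under HS (at an unadjusted p under 0.05, 3 members and 9.65% of all genes were lower; DESeq2 called 3 members and 8.84% of all genes, the exact test 2 and 6.05%). Without HS replicate 3, Fgf21, Stc1, Vegfa and Lif passed, beside 55.7% of all genes. After 135 min the order turned for Fgf21 and Gdf15, which were 3.46 (SE 0.399) and 3.90 (SE 0.613) log2 units higher under HS. These 2 passed the threshold, beside 1.30% of all genes higher and 0.817% lower. Stc2 was 0.97 (SE 0.292) higher in the same direction. Hbegf, Lif and Stc1 were lower in every HS sample than in every tunicamycin sample, by log2 differences of -1.07 (SE 0.259), -0.73 (SE 0.225) and -1.48 (SE 0.308), and Vegfa overlapped. DESeq2 called 3 members higher (Fgf21, Gdf15 and Stc2) and 3 lower (Stc1, Hbegf and Lif) under HS, beside 9.87% of all genes. The exact test called 2 higher (Fgf21 and Gdf15) and 2 lower (Stc1 and Hbegf), beside 7.38%. In the quasi-likelihood fit without HS replicate 2, Fgf21 alone passed, beside 0.966% of all genes. Without HS replicate 3 or any 1 of the tunicamycin replicates no member did, beside 0.0% to 0.0236% of all genes.

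The genes around these 7 were taken from lists drawn up by family and pathway, with earlier results of these data known, and tested in the same fits. They are 150 companion genes, namely relatives of the same families, their receptors, shedding enzymes, binding proteins, feedback inhibitors and hypoxia-linked genes, of which 149 were in the files and 104 passed the filter. Of the 45 that failed, 31 never had more than 3 reads. At 45 min of HS and at 135 min of tunicamycin, edgeR's quasi-likelihood test called 0 companion genes. At an unadjusted p under 0.05 there were 15 higher and 6 lower in the first, beside 12.3% and 7.17% of all genes. The second had 17 higher and 11 lower, beside 10.1% and 8.49%. DESeq2 called 6 and 15 companion genes (3.55% and 5.22% of all genes) and the exact test 5 and 12 (2.32% and 4.35%). The first count was 39 (26 higher, 13 lower) without replicate 3 of HS at 45 min, beside 45.4% of all genes. With the replicate block the second stayed at 0.

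Among the ligands, HS for 135 min raised Pgf, placental growth factor and a VEGF receptor 1 ligand, from 0.255 ± 0.134 to 3.01 ± 1.43 CPM (SD, n = 3), a log2 change of 3.53 (SE 0.567, adjusted p = 0.0199, edgeR). It was also higher than at 135 min of tunicamycin, by 2.60 log2 units (SE 0.482, adjusted p = 0.0483, edgeR). Of the 6 EGF family genes tested, 2 fell at 135 min of HS, Areg and Ereg, beside 2.64% of all genes. Ereg, an EGF receptor ligand like HB-EGF, went from 10.5 ± 1.01 to 4.73 ± 1.15 CPM. At 405 min of tunicamycin these 2 fell again while Egf and Nrg1 rose, with Ereg at 2.88 ± 0.267 CPM (log2 change -1.84, SE 0.159, adjusted p = 8.46e-05, edgeR). Vegfb rose by 0.73 log2 units there (SE 0.166, adjusted p = 0.00795, edgeR), 1 of 4 VEGF family genes tested. Fgf2 was the only one of 7 FGF relatives called, down from 2.07 ± 0.447 to 0.341 ± 0.0949 CPM. Of 13 TGF-beta relatives 4 fell (Gdf11, Gdf5, Inhba and Tgfb3), and of 4 interleukin-6 relatives 1 fell (Cntf). At 405 min 23.3% of all genes were called higher and 23.5% lower, so ligand counts of this size are not read as results about their families. No other ligand in these families was called in the 5 comparisons with control.

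Of the 15 receptor genes tested, 9 fell and 0 rose at 405 min of tunicamycin, when 23.5% of all genes were called lower (Egfr, Erbb2, Fgfr1, Fgfr2, Fgfrl1, Flt1, Lifr, Nrp1 and Nrp2; 10 lower and 0 higher at an unadjusted p under 0.05), and the list's median log2 change was -0.74, against -0.01 over all genes. In the other 4 comparisons with control, edgeR's quasi-likelihood test called none of these 15; without the filter on low counts it called Ret, which the filter had left out, higher at 135 min of HS. Nrp1, a VEGF co-receptor, went from 122 ± 8.13 to 16.4 ± 2.96 CPM, a log2 change of -2.87 (SE 0.159, adjusted p = 1.43e-05, edgeR). Flt1, which encodes VEGF receptor 1, went from 19.6 ± 1.26 to 5.41 ± 0.727 CPM, and Lifr from 3.34 ± 0.685 to 0.900 ± 0.109 CPM (log2 change -1.86, SE 0.222, adjusted p = 0.000386, edgeR). Several receptors were near the floor in these cells. Klb, the FGF21 co-receptor, had at most 13 reads in any sample, Kdr (VEGF receptor 2) at most 15, and Gfral, the GDF15 receptor, had 0 reads in all 18 samples, which allows up to 0.0451 to 0.0898 CPM.

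Of 13 shedding and processing genes tested, 8 fell and 0 rose at 405 min of tunicamycin, beside the same 23.5% of all genes: Adam8, Adam10, Adam12, Adam17, Adam19, Cd9, Furin and Rhbdf1. Adam12, a metalloproteinase able to shed HB-EGF, went from 157 ± 9.59 to 21.7 ± 3.07 CPM, a log2 change of -2.83 (SE 0.144, adjusted p = 1.13e-05, edgeR). It had already fallen at 45 min, to 79.1 ± 9.16 CPM, together with Cd9, a tetraspanin partner of pro-HB-EGF, which went from 185 ± 26.4 to 113 ± 13.7 CPM (adjusted p = 0.0114 and 0.0476, edgeR). Furin, the proprotein convertase, went from 185 ± 73.4 to 60.8 ± 5.86 CPM at 405 min. No gene of this list was called by edgeR at either time of HS.

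In the IGF axis, which STC2 touches through PAPP-A, 9 genes were tested and calls went in both directions. At 135 min of HS 4 were higher and 0 lower, beside 4.75% and 2.64% of all genes. At 45 min of tunicamycin 2 were higher and 1 lower, beside 4.01% and 2.17%. At 405 min 3 were higher and 3 lower, beside 23.3% and 23.5%, so the counts there are not read as a result about the axis. Igfbp4, the binding protein that PAPP-A cleaves, rose at 135 min of HS and at 45 and 405 min of tunicamycin, from 3.52 ± 1.16 CPM in the control to 15.7 ± 5.16, 13.9 ± 0.347 and 39.5 ± 1.49 CPM. The last was a log2 change of 3.52 (SE 0.255, adjusted p = 3.96e-05, edgeR). Igfbp6 rose at these times as well, to 1123 ± 497, 448 ± 75.5 and 610 ± 95.2 CPM from 281 ± 24.7 CPM. Pappa, which encodes PAPP-A, rose at 405 min of tunicamycin from 29.4 ± 10.8 to 58.8 ± 9.40 CPM (adjusted p = 0.0114, edgeR). Igf1 rose at 135 min of HS by 2.12 log2 units (SE 0.342, adjusted p = 0.0199, edgeR), as did Igf1r. At 405 min of tunicamycin Igf1r fell from 147 ± 38.4 to 87.2 ± 5.03 CPM (adjusted p = 0.0133, edgeR) and Igf2r, which clears IGF2, from 441 ± 64.2 to 206 ± 14.3 CPM (adjusted p = 0.000687, edgeR). Igf2 fell under tunicamycin, from 71.8 ± 19.0 to 25.8 ± 0.808 CPM at 45 min and 23.7 ± 2.04 CPM at 405 min. In the direct fits it was higher under HS than under tunicamycin at both shared times, by log2 differences of 1.68 (SE 0.169, adjusted p = 0.0455) and 1.19 (SE 0.177, adjusted p = 0.0354, edgeR).

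Of the 13 feedback inhibitors tested, suppressors of cytokine signalling were among those that rose and ERK pathway inhibitors among those that fell. Socs2, a suppressor of cytokine signalling, rose at 135 min of HS and at 45 and 405 min of tunicamycin, from 0.348 ± 0.0849 CPM to 1.05 ± 0.225, 2.31 ± 0.367 and 4.35 ± 0.205 CPM. At 405 min its log2 change was 3.63 (SE 0.225, adjusted p = 2.17e-05, edgeR). Socs3, the LIF feedback gene, rose at 135 min of HS from 25.2 ± 0.634 to 66.0 ± 26.6 CPM (adjusted p = 0.0451, edgeR). Socs1 and the ERK phosphatase gene Dusp6 fell at 45 min of tunicamycin. At 135 min 0 genes of this list were called, but 7 were higher and 0 lower at an unadjusted p under 0.05 (edgeR). Beside them 10.1% of all genes were higher and 8.49% lower. The median log2 change of the list was then 0.50, against -0.003 over all genes. At 405 min 8 of 13 genes of this list fell, beside 23.5% of all genes. All were inhibitors of receptor tyrosine kinase or ERK signalling (Dusp6, Errfi1, Lrig1, Spred1, Spred2, Spred3, Spry2 and Spry4). Lrig1 went from 251 ± 35.0 to 69.2 ± 13.3 CPM and Spry4 from 10.97 ± 1.80 to 3.85 ± 0.846 CPM.

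Vegfa, Stc1 and Stc2 are also known as hypoxia-linked genes, and 20 other genes of that kind were all tested. They did not move together. Ndrg1 rose at 135 min of HS and at 45 and 405 min of tunicamycin, from 47.2 ± 4.30 to 154 ± 25.1, 152 ± 13.1 and 366 ± 24.7 CPM, a log2 change of 2.98 at the last (SE 0.135, adjusted p = 8.46e-06, edgeR). P4ha2 and Car9 rose at 135 min of HS, P4ha2 from 57.1 ± 4.55 to 164 ± 56.9 CPM. Ldha, lactate dehydrogenase A, fell at 135 min of HS and at 45 and 405 min of tunicamycin, from 1334 ± 181 to 591 ± 15.4, 636 ± 53.1 and then 556 CPM (log2 change -1.24, SE 0.146, adjusted p = 0.00036, edgeR, at the last), and Egln3, an oxygen-sensing prolyl hydroxylase, fell at these times too. At 405 min 8 of the 20 fell (Hif1a, Epas1, Egln1, Egln3, Ldha, P4ha1, Pdk1 and Pfkfb4), beside 23.5% of all genes. Another 2 rose (Ndrg1 and Pfkfb3), beside 23.3% of all genes. The median log2 change of the list was -0.27 at 135 min of HS, -0.29 at 45 min and -0.39 at 405 min of tunicamycin.

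In all, out of 104 tested, 10 companion genes rose and 4 fell at 135 min of HS, beside 4.75% and 2.64% of all genes. At 45 min of tunicamycin 4 rose and 8 fell, beside 4.01% and 2.17%. At 405 min 9 rose and 44 fell, beside 23.3% and 23.5%. With total counts in place of TMM, which shifted the median of all genes by -0.17 and 0.11 on the log2 scale in the first 2, the splits were 8 and 6 and 7 and 6. The count at 135 min of HS was 0 without HS replicate 3 or without control replicate 2 or 3, and 29 without HS replicate 1. The count at 45 min of tunicamycin lay between 2 and 27 with 1 sample left out, lowest without tunicamycin replicate 2 and highest without control replicate 1. In the direct fits Igf2 was higher and Socs2 lower under HS at 45 min, and Igf2, Ndrg1, P4ha2 and Pgf were higher at 135 min. With total counts these counts were 1 higher and 3 lower at 45 min and 7 higher and 3 lower at 135 min, with the median of all genes shifted by -0.28 and -0.16.

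**Figure D4:**
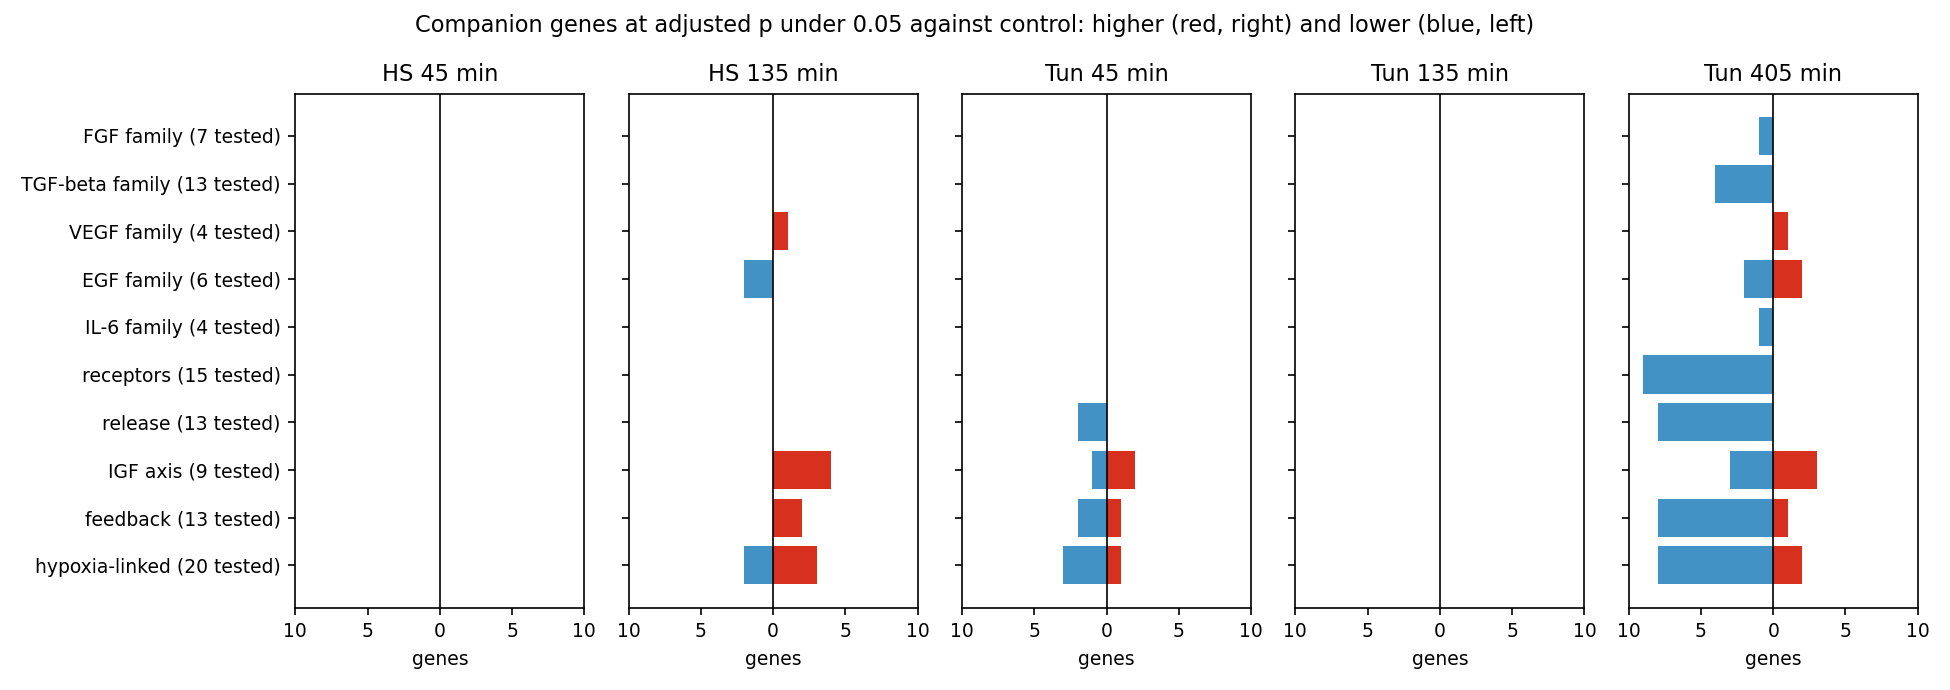
Number of companion genes past adjusted p under 0.05 (edgeR) in each list and comparison with control, higher to the right in red and lower to the left in blue, with the number tested beside each list. No bar is drawn for 45 min of HS or 135 min of tunicamycin, and the longest is that of 9 receptor genes lower at 405 min of tunicamycin.

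The genes whose pattern was most like that of each member were found by Pearson's r of log2(CPM + 1) over the 18 samples among 10857 genes, as a description in which the points share libraries and groups. For Fgf21 these were Atf3, a stress-induced transcription factor (r = 0.972), Herpud1, which acts in ER-associated degradation (r = 0.966), and Mmp28 (r = 0.963). For Stc2 they were Mmp28 (r = 0.981), 1700020L24Rik (r = 0.973) and Nfkbie (r = 0.968), and for Vegfa Ccdc130 (r = 0.975), the ATF4 pathway pseudokinase gene Trib3 (r = 0.951) and Gdnf, itself a secreted growth factor (r = 0.949). Gdf15 was most like Gata4 (r = 0.942), Lysmd1 (r = 0.941) and Rasip1 (r = 0.932). Hbegf was most like Spry4 (r = 0.879), Dnm3os (r = 0.829) and Ereg (r = 0.812), Lif like 1810011O10Rik (r = 0.886), Nfkbiz (r = 0.881) and Ccnt2 (r = 0.819), and Stc1 like Afmid (r = 0.838), Arhgap26 (r = 0.836) and Cyb561d1 (r = 0.835). Among the members themselves r was 0.941 for Fgf21 with Stc2, 0.891 for Fgf21 with Gdf15, 0.849 for Stc2 with Vegfa, 0.799 for Stc1 with Hbegf and -0.03 for Fgf21 with Lif.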

How the data were processed

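Poly(A) mRNA-seq libraries were made with a modified Illumina protocol and, in addition, a NuGEN kit. The paper does not say which samples had which preparation. Reads were aligned by the authors to mm9 and counted on RefSeq genes on the DNAnexus platform. The aligner and whether counting used strand are not given in the sources used here. The authors deposited an estimated count per gene, not normalized, with 4 significant digits and 7.27% to 8.81% of values not whole, and an RPKM value. The deposited score (RPKM standardized over the genes of a file) and the deposited signal (RPKM over its root mean square) were not used. The coordinates of 741 genes differed between files, those of the 7 genes did not.

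Counts were rounded and fitted pairwise (3 against 3) with edgeR 4.0.16 in R 4.3.3 (TMM, quasi-likelihood test), with Benjamini-Hochberg adjustment over 12731 genes with at least 1 read in every sample. Scripts were tested on simulated data. Alternatives were no filter, filterByExpr, DESeq2 1.42.0, edgeR's exact test, DESeq2 size factors, total counts, all 6 groups in 1 fit, the replicate number as a block, leaving out each sample and, for the 7 genes, the RPKM values. Same-numbered samples deviated together in all 3 pairs at 135 min of tunicamycin against control (r of 0.287, 0.236 and 0.194), and in no other comparison with control. These values are small, samples of unlike number were not compared, and the labels name no pairing. The block is therefore given as an alternative fit only.

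The 7 genes and all lists were chosen with earlier results of these data known. Named companion genes are up to 3 per list, comparison and direction with the largest log2 change past the threshold and a mean of at least 50 reads in the higher group, and for each of the 7 genes the 3 most alike with a mean of at least 1 CPM. Others are named only to spell out a count or for a receptor's role, after their values were seen. No replicate pair differed by as little as sampling noise (chi-square per degree of freedom of 14.3 or more).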

Additional observations from a re-analysis of the deposited data

Results flagged for a closer look

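Stc1 and Hbegf moved to opposite sides of the control in groups under the same contrast. All 3 samples of Stc1 at 135 min of HS were below all 3 control samples and all 3 at 135 min of tunicamycin were above them, and the log2 change under HS minus that under tunicamycin was -1.47. For Hbegf, all 3 samples at 135 min of tunicamycin were above the control and all 3 at 405 min were below it, and the earlier log2 change minus the later was 1.41. In the direct fit of the 2 stresses at 135 min Stc1 did not pass the threshold. DESeq2 and the exact test called it lower under HS, beside 9.87% and 7.38% of all genes. The difference of Hbegf between the 2 times was not tested. Both genes were chosen with these values known, so the differences are given as a description. Stc1 had 13 to 65 reads per sample. Groups of 3 samples were not screened for single outlying values.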

How the results depend on the processing

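Across 523 recomputed changes of the 7 genes, 504 moved by less than the spread between replicates, 19 moved more and 0 reversed a called value; Hbegf at 45 min of tunicamycin (0.03) changed sign in 3 of 15. The companion count at 45 min of HS (0) was 6 with DESeq2, 5 with the exact test, 16 with all 6 groups in 1 fit and 0 to 39 with 1 sample left out. At 135 min of HS (14) it was 27 with DESeq2, 27 with the exact test, 39 with 6 groups, 0 with the replicate block and 0 to 29 with 1 sample left out. At 45 min of tunicamycin (12) it was 24 with DESeq2, 19 with the exact test, 1 with the block and 2 to 27 with 1 sample left out. At 135 min (0) it was 15 with DESeq2, 12 with the exact test, 8 with 6 groups, 0 with the block, and 0 with any sample left out. At 405 min (53) every alternative gave 40 to 66, the block 47. For HS against tunicamycin at 45 min (2) the count was 1 without the filter, 21 with DESeq2, 14 with the exact test, 1 with DESeq2 size factors, 4 with total counts, 19 with 6 groups, 0 with the block and 0 to 55 with 1 sample left out, the 55 without HS replicate 3. At 135 min (4) it was 7 without the filter, 19 with DESeq2, 19 with the exact test, 10 with total counts, 30 with 6 groups, 0 with the block and 0 to 4 with 1 sample left out. The cause of these moves was not tested. No pairing by replicate number was established at any time, so the samples of a block share only a number. With the block, 0 of the 7 genes passed at 135 min of HS, 2 at 45 min and 4 at 405 min of tunicamycin, beside 0.0%, 0.165% and 41.4% of all genes. With 3 samples a group, genes under about 3 reads (0.0451 to 0.0898 CPM), Gdf15 in the control among them, have changes of uncertain size.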

Other observations

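Without the filter on low counts, 2 further companion genes passed the threshold, both outside the naming rule and named after their values were seen. Ret, the signalling receptor that GFRAL uses for GDF15, had at most 1 read in a control sample and 9 to 24 reads in the samples at 135 min of HS. It was called higher there (adjusted p = 0.0177, edgeR's quasi-likelihood test without the filter). With so few control reads the size of the change is not given. The fits with a sample left out kept the filter, so Ret was not in them. Fgf14 was lower at 405 min of tunicamycin (log2 change -2.53, SE 0.433, adjusted p = 0.00129, edgeR). Gdnf, a secreted ligand of RET with its own co-receptor, was at 8.09 CPM in the control, 19.9 CPM at 135 min of HS and 29.1 CPM at 405 min of tunicamycin, and its pattern was among the 3 most like that of Vegfa.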
